A study of Danio rerio with 12 samples.

Results

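The comparison described here set larvae that had received serotonin (5-hydroxytryptamine, 5-HT) against injected controls at 4 days post fertilization (dpf), and its members are the 4 of 12 arrays that the labels assign to those groups at that age. Both groups were wild-type zebrafish of the AB line whose embryos had been dechorionated with Proteinase K and then injected. The 5-HT group received 5-HT at the zygote stage, days before collection, in KCl with TRITC-dextran, a fluorescent tracer. The control group received KCl with the tracer and the DMSO and ethanol in which reserpine is dissolved. By this description, 5-HT and the absence of DMSO and ethanol cannot be told apart in the comparison of these groups. Each array carried total RNA from a pool of 30 to 40 whole larvae, and each group had 2 arrays that the series calls biological duplicates. The sources used here give no injected dose. The other 8 arrays hold 5-HT and control larvae at 2 dpf and reserpine larvae at both ages. They served to estimate the spread between replicates and as points of comparison.

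Serotonin is made from tryptophan by tryptophan hydroxylase and the aromatic amino acid decarboxylase, loaded into vesicles by the vesicular monoamine transporter, taken back into cells by the serotonin transporter and broken down by monoamine oxidase. It is present in vertebrate embryos before neurons form, and later acts in the brain, the gut and other tissues through several families of receptors. Reserpine blocks the vesicular transporter. In the zebrafish larva, serotonergic neurons lie in the raphe and the hypothalamus, and the pineal gland makes melatonin from serotonin.

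The 4 arrays carried the tissues of a larva of this age. The mean log2 value of 6 exocrine pancreas markers was 12.86 and 12.77 in the 5-HT larvae and 12.62 and 12.65 in the controls, against 6.49 to 7.89 on the arrays of 2 dpf. Hatching gland markers, of which 2 were tested, stood at 4.34 and 4.71 in the 5-HT larvae and at 3.80 and 4.4 in the controls, below the 5.84 to 7.62 of 2 dpf. The mean of 3 photoreceptor markers lay between 12.55 and 12.71 on all 4 arrays. Across the tested features the 2 control arrays correlated at r = 0.988, the 2 5-HT arrays at r = 0.984, and a 5-HT with a control array at r = 0.976 to 0.984. One label of a reserpine array of 4 dpf (replicate 2) gives 2 days as the age of the larvae. Its exocrine pancreas mean was 12.53, below the other arrays of 4 dpf (12.62 to 12.92) and far above those of 2 dpf.

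The arrays did not follow treatment in the same direction at both ages on the second principal component, which held 17.1% of the variance after the 45.9% of the first component that separated the ages. On that component the 5-HT arrays of 4 dpf scored 44.3 and 51.0 and the controls −11.8 and −22.9. At 2 dpf the order was the other way, with 5-HT at −37.3 and −45.4 and control at 38.9 and 38.5. The 2 reserpine arrays of 2 dpf, which are replicates, scored −38.6 and 32.9, so that 1 fell with each side. Across 18407 genes the 4 dpf difference between 5-HT and control correlated at r = 0.434 with the difference between those 2 replicates (replicate 2 minus replicate 1), which received the same treatment. This is a description across genes, which are not independent, and its part in the differences between 5-HT and control was not tested. Whether labels of some arrays were exchanged was not tested either. An exchange of both 5-HT arrays with both control arrays of an age would turn the sign of their difference. An exchange of single arrays would instead mix the groups.

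**Figure D1:**
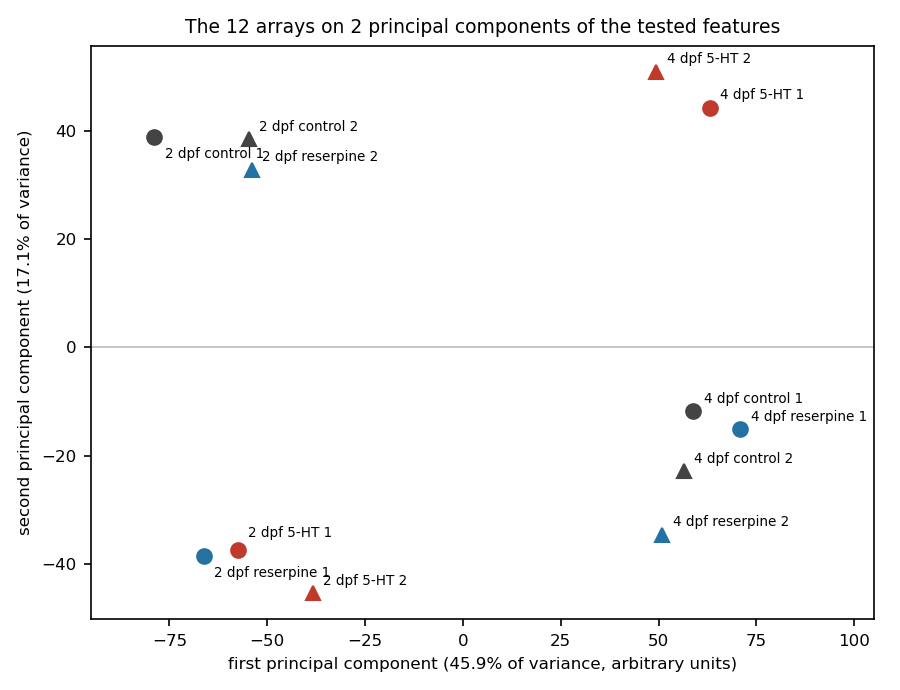
Scores of the 12 arrays on the first and second principal components of the tested features, in arbitrary units, with colour for treatment (grey control, red 5-HT, blue reserpine) and circles and triangles for replicates 1 and 2. The 5-HT arrays of 4 dpf score 44.3 and 51.0 on the second component, on the side of the 2 dpf controls and of 1 reserpine array of 2 dpf (32.9).

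No gene passed the test between 5-HT and control larvae at 4 dpf. Differences are given on the log2 scale as 5-HT minus control, and a gene passed at an adjusted p under 0.05 in limma's moderated test over the 12 arrays. The adjustment ran over all features tested, also for genes. Of 58127 features tested, 0 passed (0%), and the smallest adjusted p was 0.114. Of these features 19770 carried 1 gene symbol and stood for 18407 genes, of which 0 passed (0%), with a smallest adjusted p of 0.256. At an unadjusted p under 0.05, 409 genes were higher with 5-HT (2.22%) and 530 lower (2.88%). That level was reached by 4943 features (8.50%). Both 5-HT arrays lay above both control arrays in 4959 genes (26.9%) and below both in 3631 (19.7%), and the median difference over all genes was 0.04. The median standard error over features was 0.20, and with 2 arrays a group an exact permutation test cannot give a p below 0.333. Since whole larvae were pooled, fewer cells of a type and less RNA per cell cannot be told apart.

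The absence of calls depended on the reserpine arrays of 2 dpf, whose replicates lay on opposite sides of the second component. Without either or both of them, 372 features passed, 274 higher and 98 lower with 5-HT, and 22 genes passed, 2 higher and 20 lower. These settings were added after the data had been seen. With the 6 arrays of 4 dpf alone, 32 features passed and 0 genes. A feature of adam9a, a membrane metalloprotease, passed there with a difference of 2.13 (adjusted p = 0.0355 in limma). It was not the feature that stood for the gene, which differed by −0.17.

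The genes with the smallest p on the low side included regulators of neurons, of the retina and of ion transport, all given here as values that did not pass. The adhesion receptor adgrb2, of the brain angiogenesis inhibitor family, had log2 values of 9.50 and 9.50 in the controls and 8.67 and 8.44 in the 5-HT larvae. Its difference was −0.95 (standard error 0.17, unadjusted p = 2.70e-04, adjusted p = 0.256). It lay lower in both 5-HT arrays, with no overlap. It passed with −0.95 (adjusted p = 0.0313) once both reserpine arrays of 2 dpf, which are not part of this contrast, were left out. That setting was added after the data had been seen, so the pass is no further support.

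The kinase gene wnk4b, whose mammalian counterpart regulates salt transport in the kidney, had values of 9.89 and 10.17 in the controls and 8.94 and 8.73 with 5-HT, a difference of −1.20 (standard error 0.27, adjusted p = 0.322). Another feature of wnk4b differed by −0.61. The transcription factor gata2a, which acts in blood, vessels and neurons, stood at 9.88 and 9.83 in the controls and at 9.0 and 8.84 with 5-HT. Its difference was −0.94 (standard error 0.24, adjusted p = 0.330). Both genes were low on both 5-HT arrays. They also passed without the 2 dpf reserpine arrays, with adjusted p of 0.0223 for wnk4b and 0.0351 for gata2a. The same limit holds for these passes, since the setting was added after the data had been seen.

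A pair of photoreceptor transcription factors lay on the same side. The cone and rod homeobox gene crx read 10.72 and 10.63 in the controls and 10.18 and 10.22 in the 5-HT larvae, a difference of −0.48 (standard error 0.12, adjusted p = 0.330). The rod factor nrl read 8.99 and 8.64 in the controls and 8.25 and 8.16 with 5-HT, a difference of −0.61 (standard error 0.15, adjusted p = 0.330). Neither gene's groups overlapped, and neither passed. The light-sensitive opsin of the pineal, exorh, differed by −0.51 (8.45 and 8.87 against 8.09 and 8.22). In the photoreceptor list that holds these genes, 18 of 61 lay above both controls (29.5%) and 9 below (14.8%). Over all genes the shares were 26.9% and 19.7%, and the median of the list was 0.10.

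The 20 genes with the smallest p on this side included genes of synapses and of neuronal signalling. These were lrrc4.1 (−0.62), a synaptic adhesion protein, cnksr2b (−0.72), a scaffold of Ras signalling, and cacng7a (−0.70), whose mammalian counterpart is an auxiliary subunit of glutamate receptors. The wider lists did not lie on this side. Neuron genes were above both controls in 43.2% and below in 15.9%, and synaptic transmission genes in 20.4% and 22.2%. Over all genes the shares were 26.9% and 19.7%. The G protein subunit gng5 read 12.56 and 12.80 in the controls and 11.76 and 11.76 with 5-HT, a difference of −0.92, while another feature of the same gene differed by 0.06. The tweety family gene ttyh1 differed by −0.61 by its brightest feature and by 0.30 by another. The direction of these 2 genes therefore differed between their features. Others on this side were wipf2b (−1.14), which binds the actin regulator WASP, the splicing regulator mbnl3 (−0.75), the antiproliferative gene tob2 (−0.64), the ETS factor etv1 (−0.67) and the ubiquitin ligase gene rnf44 (−0.65). The 20 genes ran from −1.20 to −0.48, with adjusted p up to 0.330.

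On the high side tpm1, a tropomyosin of the actin filament, led with 5.67 and 5.84 in the controls and 7.58 and 7.39 in the 5-HT larvae. This difference of 1.73 (standard error 0.34) is a 3.32-fold level, with an unadjusted p of 5.96e-04 and an adjusted p of 0.306. The calmodulin gene calm3b read 7.09 and 6.48 in the controls and 8.16 and 8.37 with 5-HT, a difference of 1.48 (standard error 0.30, adjusted p = 0.306). Both were high on both 5-HT arrays without overlap. Without the 2 dpf reserpine arrays they passed, tpm1 at an adjusted p of 0.00916 and calm3b at 0.0424. As that setting was added after the data had been seen, these passes are no further support.

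The sialyltransferase gene st6galnac2 read 7.82 and 7.89 in the controls and 8.67 and 8.47 with 5-HT, a difference of 0.72 (standard error 0.15, adjusted p = 0.306). The secreted Wnt pathway modulator dkk2 read 7.54 and 7.58 against 8.07 and 8.11, a difference of 0.53 (standard error 0.12, adjusted p = 0.330). Its replicates lay within 0.04 of each other in both groups. Mitochondrial genes on this side were ndufb4 (0.86), a subunit of respiratory complex I, slc25a42 (0.58), a carrier of coenzyme A, and antkmt (0.58), a methyltransferase of the adenine nucleotide carrier. Respiratory chain genes lay above both controls in 18 of 86 (20.9%) and below in 21 (24.4%), with a median of −0.01. For 70 mitochondrial ribosome genes the shares were 32.9% and 14.3%. Over all genes they were 26.9% and 19.7%. Genes of protein and RNA handling were pdia7 (0.58), a disulfide isomerase, nudc (0.66), a partner of dynein, upf3b (0.54), of nonsense-mediated decay, and FCF1 (0.63), of ribosomal RNA processing. The 20 genes ran from 0.53 to 1.73, with adjusted p up to 0.362. All 40 leading genes were chosen by their p in this contrast, so that their lack of overlap between groups is no further support.

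**Figure D2:**
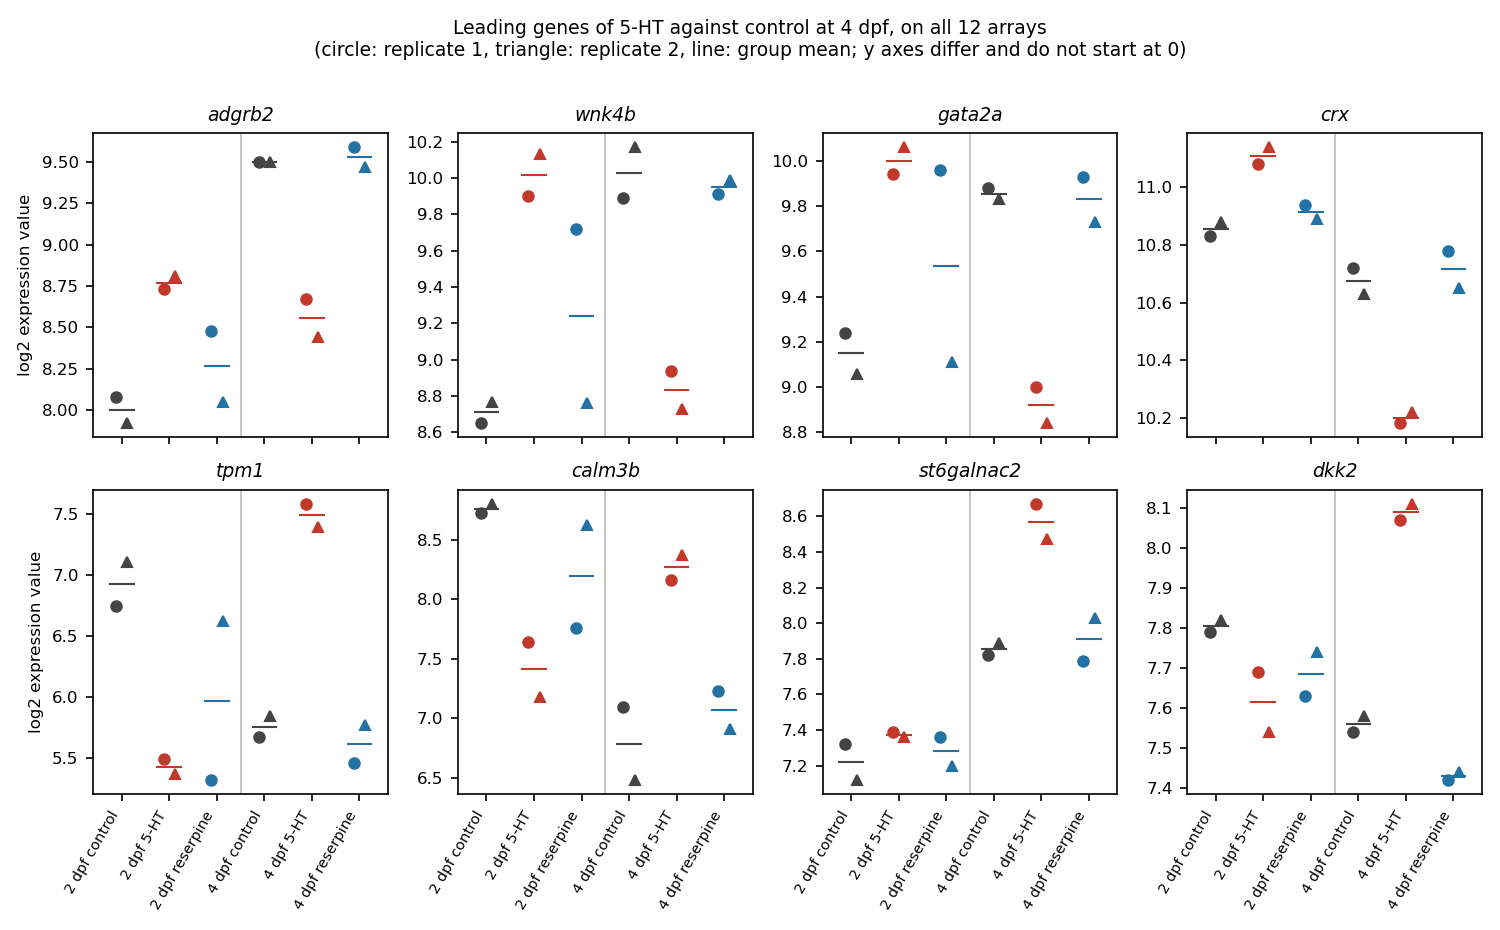
Log2 expression values of 8 leading genes on all 12 arrays, by age and treatment, with circles for replicate 1, triangles for replicate 2 and a line at each group mean. The y axes differ and do not start at 0. In the 4 genes of the upper row both 5-HT arrays of 4 dpf lie below the controls of that age, and in the lower row above them, while the 5-HT arrays of 2 dpf lie on the other side of their controls for all but st6galnac2.

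A difference of at least 2-fold without overlap was seen in 8 genes on the high side (0.0435%) and 7 on the low side (0.0380%), and none of them passed. They include, chosen after their values were seen, the mitochondrial gene ND6 (1.80), the complement factor H family gene cfhl4 (1.67) and znfl1g (1.09) on the high side. On the low side were pygo2 (−1.16), a cofactor of Wnt signalling, her8a (−1.13), a Hairy-related repressor, atxn2l (−1.07), rheb (−1.04), a small GTPase that activates mTOR, and the immediate early gene egr1 (−1.03). Another feature of pygo2 differed by −0.54. The egr1 values were 10.45 and 10.39 in the controls and 9.57 and 9.21 with 5-HT, with a standard error of 0.36.

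None of the genes that make, move and break down serotonin passed. The synthesis enzyme genes differed by 0.14 for tph1a, 0.08 for tph1b, 0.13 for tph2 and 0.36 for the decarboxylase ddc, whose values were 8.08 and 7.80 in the controls and 8.36 and 8.23 with 5-HT. The transporter gene slc6a4a, expressed in raphe and pineal, read 10.31 and 10.40 against 10.25 and 10.03, a difference of −0.22 (standard error 0.14, adjusted p = 0.726). The other transporter gene slc6a4b differed by 0.11, the vesicular transporter slc18a2 by −0.10 and the monoamine oxidase gene mao by 0.17. Both 5-HT arrays lay above both controls for ddc and below both for slc6a4a. The highest adjusted p among these 8 was 0.950, for tph1b.

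Of 30 serotonin pathway genes tested, the 5-HT arrays were above both controls in 5 (16.7%) and below both in 7 (23.3%), against 26.9% and 19.7% of all genes, and 0 passed. The list median was −0.0025, against 0.04 for all genes. Among receptors, htr2ab, of the 5-HT2 family, read 6.87 and 6.90 in the controls and 6.55 and 6.42 with 5-HT, a difference of −0.40 (standard error 0.12, unadjusted p = 0.00969, adjusted p = 0.401). The ion channel receptor htr3a differed by 0.21 and htr7c by 0.25. The raphe factors fev and gata3, which specify serotonergic neurons in mammals, differed by −0.26 and −0.49. The gata3 values of 11.12 and 11.04 against 10.69 and 10.49 did not overlap, and its adjusted p was 0.586.

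Other aminergic, peptide and stress genes were also without a call. The median difference was 0.01 over 31 catecholamine genes, 0.04 over 38 neuropeptide genes and 0.06 over 28 genes of the stress axis. The dopamine synthesis gene th read 8.25 and 7.88 in the controls and 8.77 and 8.37 with 5-HT, a difference of 0.51 with a standard error of 0.25. Among neuropeptides, the somatostatin gene sst1.1 differed by 0.48 (9.14 and 9.09 against 9.56 and 9.62), the opioid precursor pdyn by 0.40, the feeding peptide agrp by −0.45 and oxytocin, oxt, by −0.33. In the stress axis crhr2, a receptor of corticotropin-releasing hormone, differed by −0.50 by its brightest feature and by −0.58 to 0.04 by its other features. The cortisol-metabolizing enzyme gene hsd20b2 differed by 0.45 and the glucocorticoid receptor nr3c1 by −0.17.

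Replicates differed widely in light- and clock-regulated genes. The cryptochrome cry1a, which light induces in zebrafish, read 10.93 and 7.45 on control replicates 1 and 2 and 10.90 and 7.76 on 5-HT replicates 1 and 2. The period gene per2, which light also induces, read 10.81 and 7.82 in the controls and 11.04 and 7.77 with 5-HT. In both genes replicate 1 stood far above replicate 2 in both groups, and the groups differed by only 0.14 (standard error 1.70) for cry1a and 0.09 (standard error 1.47) for per2.

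The same split by replicate appeared in the reserpine arrays of 4 dpf, where cry1a read 10.91 and 7.42 and per2 10.93 and 7.64. The replicates of a number thus shared a state of these genes across treatments. The sources used here give no time of collection. Further clock genes differed between the groups by −0.53 for per1b, −0.42 for per1a, −0.38 for per3 and −0.55 for nr1d1, the repressor of the bmal genes, which read 11.69 and 11.23 in the controls and 11.27 and 10.55 with 5-HT. The activator genes bmal1a, bmal1b and clocka differed by 0.02 to 0.04. Between arrays of the same number, nr1d1 was −0.42 (replicate 1) and −0.68 (replicate 2) with 5-HT, per1b −0.45 and −0.61, per1a −0.34 and −0.49, and per3 −0.25 and −0.50. The same differences were −0.03 and 0.31 for cry1a and 0.23 and −0.05 for per2, which had no common sign. No p is given for these differences, since the labels do not say that a number marks a shared batch. In a fit with the replicate number as a block, 0 features passed between 5-HT and control at 4 dpf, so none of these genes did. That block is the same shift for all groups at both ages, so it cannot remove a split that differs between the ages. Its result therefore does not settle these same-number differences. The standard errors and overlap counts of the clock genes contain the split between replicates. Of 21 core clock genes, 1 lay above and 1 below both controls (4.76% each, against 26.9% and 19.7% of all genes), and 0 passed. The median of 0.01 went from −0.36 to 0.22 when 1 of the 4 arrays was left out.

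**Figure D3:**
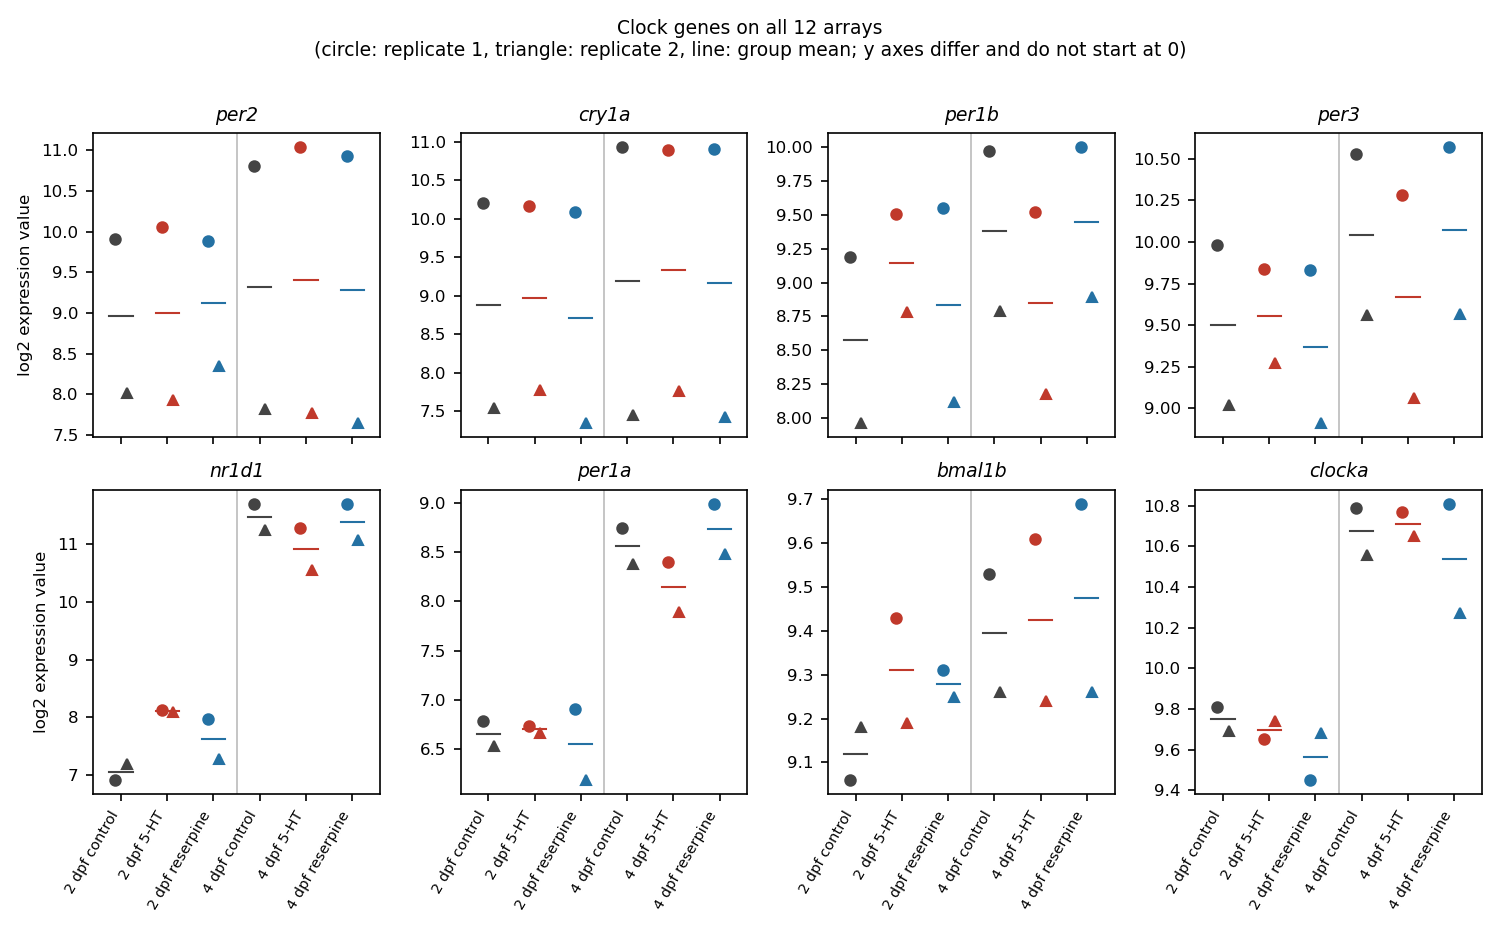
Log2 expression values of 8 clock genes on all 12 arrays, by age and treatment, with circles for replicate 1, triangles for replicate 2 and a line at each group mean. The y axes differ and do not start at 0. At 4 dpf per2 and cry1a lie between 10.81 and 11.04 on every replicate 1 array and between 7.42 and 7.82 on every replicate 2 array, whatever the treatment.

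Among lists of nervous system genes, neural progenitor genes lay most often on the high side. Of 39 tested, 20 were above both controls (51.3%) and 2 below (5.13%), against 26.9% and 19.7% of all genes, with a median of 0.15 (0.10 to 0.19 without each of the 4 arrays in turn). The glial calcium-binding protein gene s100b read 8.03 and 8.01 in the controls and 8.40 and 8.50 with 5-HT, a difference of 0.43 (adjusted p = 0.572). The progenitor factor sox11a differed by 0.41, the Notch target her4.4 by 0.38 and the proneural gene ascl1a by 0.29. None of the 39 passed.

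Neuron genes were above both controls in 19 of 44 (43.2%) and below in 7 (15.9%), against 26.9% and 19.7% of all genes. Their median was 0.09, with 0 calls. The synaptic vesicle calcium sensor syt1b read 7.07 and 7.46 in the controls and 7.95 and 7.85 with 5-HT, a difference of 0.64, while its other feature differed by 0.08. The intermediate filament gene inaa differed by 0.50, the microtubule regulator stmn2b by −0.38 and the vesicle protein gene syn2b by −0.48. Voltage-gated channel genes lay on the low side more often than all genes, with 20 of 49 below both controls (40.8%) and 8 above (16.3%). Their median was −0.08, and it stayed negative, between −0.13 and −0.05, without each of the 4 arrays in turn.

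The potassium channel gene kcnq3 read 8.18 and 8.05 in the controls and 7.50 and 7.47 with 5-HT, a difference of −0.63 (standard error 0.17, adjusted p = 0.347), and its other feature differed by −0.20. The fast-spiking potassium channel genes kcnc1a and kcnc1b differed by −0.64 and −0.44, and the calcium channel genes cacna1ba and cacna1ha by −0.37 and −0.31. Synaptic transmission genes lay above both controls in 11 of 54 (20.4%) and below in 12 (22.2%), and their median was 0.03. None of the channel or transmission genes passed. Photoreceptor genes were above both controls in 18 of 61 (29.5%, near the 26.9% of all genes) and below in 9 (14.8%, against 19.7%). The median of that list was 0.10, and 0.04 without 5-HT replicate 2, against the negative values of its members crx, nrl and exorh. The photoreceptor genes guca1b and pde6b, of the light response, differed by 0.47 and 0.45.

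Of the digestive organ lists, those of the exocrine pancreas and enterocytes had a larger share above both controls than all genes (26.9% above, 19.7% below), while liver plasma genes, with 16 of 52 above (30.8%) and 5 below (9.62%), lay nearer to it. Exocrine pancreas genes were above both controls in 12 of 29 (41.4%) and below in 3, with a median of 0.15. The zymogen granule gene sycn.2 read 7.10 and 6.29 in the controls and 7.55 and 7.23 with 5-HT, a difference of 0.70 with a standard error of 0.24 (adjusted p = 0.441), and the elastase gene ela2 differed by 0.29. Enterocyte genes were above in 16 of 42 (38.1%) and below in 3 (7.14%), with a median of 0.08. The meprin gene mep1ba and the bile acid transporter slc10a2 differed by 0.50 and 0.47. None passed.

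Skeletal muscle genes were above both controls in 34 of 81 (42.0%) and below in 10 (12.3%), against 26.9% and 19.7% of all genes, but with a median of 0.04, against 0.04 for all genes. Values differed in sign within the triad, where nerve excitation is coupled to contraction. The calcium channel subunit cacng1a read 8.18 and 8.46 in the controls and 8.83 and 9.0 with 5-HT, a difference of 0.60, and triadin, trdn, differed by 0.41. The junctophilins jph1b and jph2 differed by −0.33 and −0.29. Collagen and cartilage genes lay below both controls in 25 of 72 (34.7%) and above in 18 (25%), against 19.7% and 26.9% of all genes. Their median of −0.04 changed sign when arrays were left out singly, from −0.09 to 0.01. The cartilage collagen col2a1a differed by −0.36 and col18a1a by −0.49, whereas the proteoglycan gene fmodb differed by 0.39. No muscle or collagen gene passed.

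In the patterning and cell death lists the share on the high side was also above that of all genes (26.9%), and the share on the low side was below it (19.7%). Hox genes, which set position along the body axis, were above both controls in 18 of 42 (42.9%) and below in 5 (11.9%), with a median of 0.13. The posterior genes hoxa9b and hoxb9a differed by 0.39 and 0.36, and the anterior genes hoxb3a and hoxa5a by −0.45 and −0.40. Genes of p53 and apoptosis were above in 14 of 28 (50.0%) and below in 3 (10.7%), with a median of 0.19. Among them the cell death gene bbc3 differed by 0.57 (8.53 and 8.45 against 9.21 and 8.91), the caspases casp3b and casp8 by 0.48 and 0.44, and the tumour necrosis factor receptor tnfrsf1a by 0.34. None passed in either list.

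The list of chaperones and the unfolded protein response held 24 of 87 genes above both controls (27.6%, near the 26.9% of all genes) and 10 below (11.5%, against 19.7%). Its median was 0.12 and ran from 0.02 to 0.20 without each of the 4 arrays. The stress-responsive transcription factor atf4b read 11.79 and 11.70 in the controls and 11.03 ± 0.035 (mean ± SD, n = 2) with 5-HT, a difference of −0.72 (standard error 0.20, adjusted p = 0.362), and trib3, one of its targets in mammals, differed by 0.41. Ribosome biogenesis genes were above both controls in 30 of 84 (35.7%) and below in 7 (8.33%), with a median of 0.10 that lay between 0.00 and 0.19 without each of the 4 arrays. The sterol regulators srebf1 and srebf2 differed by −0.63 and −0.34, and the cholesterol synthesis genes acat2 and pmvk by 0.41 and 0.40. Of the 29 genes in the cholesterol synthesis list, 9 lay above both controls (31.0%) and 5 below (17.2%), near the shares of all genes. In the immediate early list egr2b and klf11b differed by −0.45 and −0.68, and maff and jund by 0.47 and 0.44. No gene of these lists passed.

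**Figure D4:**
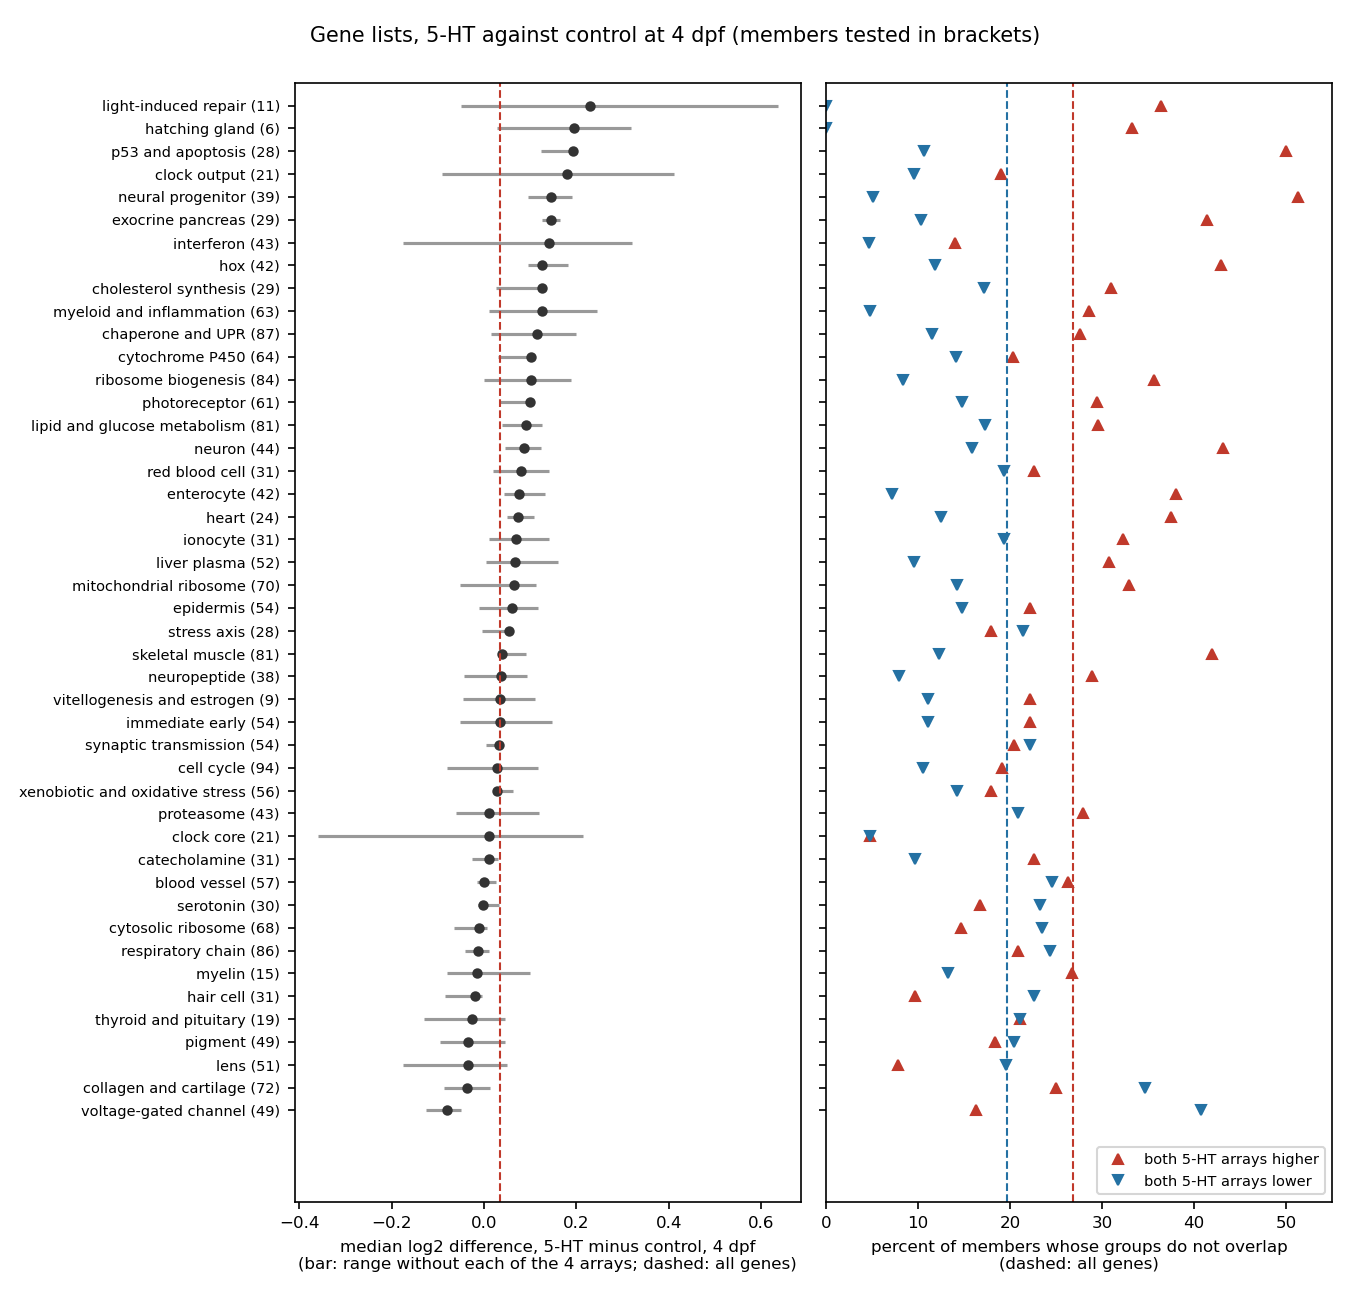
For each of 45 gene lists, the left panel gives the median log2 difference between 5-HT and control at 4 dpf with its range when each of the 4 arrays is left out, and the right panel the percent of members whose 2 5-HT arrays lie above (red) or below (blue) both controls. Dashed lines mark the same quantity over all 18407 genes (0.04, 26.9% and 19.7%). Neural progenitor (51.3%) and p53 genes (50.0%) lie farthest to the right in red, and voltage-gated channel genes (40.8%) in blue.

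The 5-HT difference at 4 dpf was set against that at 2 dpf, which rests on other arrays, by an interaction term in the same fit. The 2 differences passed as unequal in 1253 features (2.16%), of which 1109 carried no single gene symbol, and in 112 genes (0.608%). In 19 of these genes (0.103%) the 4 dpf difference was the higher one, and in 93 (0.505%) the lower. In all 112 the differences had opposite signs at the 2 ages, which the choice of genes by the gap between these differences favours. Over all genes, 3474 (18.9%) had no overlap at both ages in opposite directions, and 623 (3.38%) in the same direction. The 2 differences correlated at r = −0.452 across 18407 genes, a description in which the points share arrays and are not independent.

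Of the genes already described, tpm1 differed by 1.73 at 4 dpf and by −1.49 at 2 dpf, where it read 6.74 and 7.10 in the controls and 5.49 and 5.37 with 5-HT. The interaction was 3.22 (standard error 0.49, adjusted p = 0.0208 in limma). FCF1 had the smallest adjusted p, 0.0160, with 0.63 at 4 dpf and −1.50 at 2 dpf. The gene calm3b had an interaction of 2.83 (adjusted p = 0.0207) and ndufb4 of 2.04 (adjusted p = 0.0203). These 4 genes were thus higher than their controls with 5-HT at 4 dpf and lower at 2 dpf.

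In the other direction adgrb2 was −0.95 at 4 dpf and 0.77 at 2 dpf, an interaction of −1.72 (adjusted p = 0.0203), and wnk4b was −1.20 and 1.31, an interaction of −2.50 (adjusted p = 0.0211). The gene gata2a was −0.94 and 0.85 (adjusted p = 0.0335). Among list members that passed in this test were the otogelin-like gene otogl (−0.51 and 0.78, adjusted p = 0.0324), otop1, needed for otoliths (−0.48 and 0.89, adjusted p = 0.0366), atf4b (−0.72 and 0.62, adjusted p = 0.0477), srebf1 (−0.63 and 1.05, adjusted p = 0.0492) and the spindle checkpoint gene bub1bb (0.51 and −0.70, adjusted p = 0.0454). At 4 dpf the other features of otogl differed by only −0.02 and −0.11. No serotonin or core clock gene passed. Of the 112 genes, 109 differed between the 2 reserpine replicates of 2 dpf (replicate 2 minus replicate 1) in the direction of the interaction, as did 67.6% of the 18136 genes in which neither value was 0.

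These calls rested on the full set of arrays. The gene count was 0 when any 1 of the 4 arrays of 4 dpf compared here was left out, and likewise when replicate 1 of the 2 dpf controls or replicate 2 of the 2 dpf 5-HT arrays was left out. It was 23 without the other 2 dpf control, 13 without the other 5-HT array of that age, 33 without either 4 dpf reserpine array and 381 without either 2 dpf reserpine array. With the mean of all features of a symbol in place of the brightest, 1 gene passed.

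**Figure D5:**
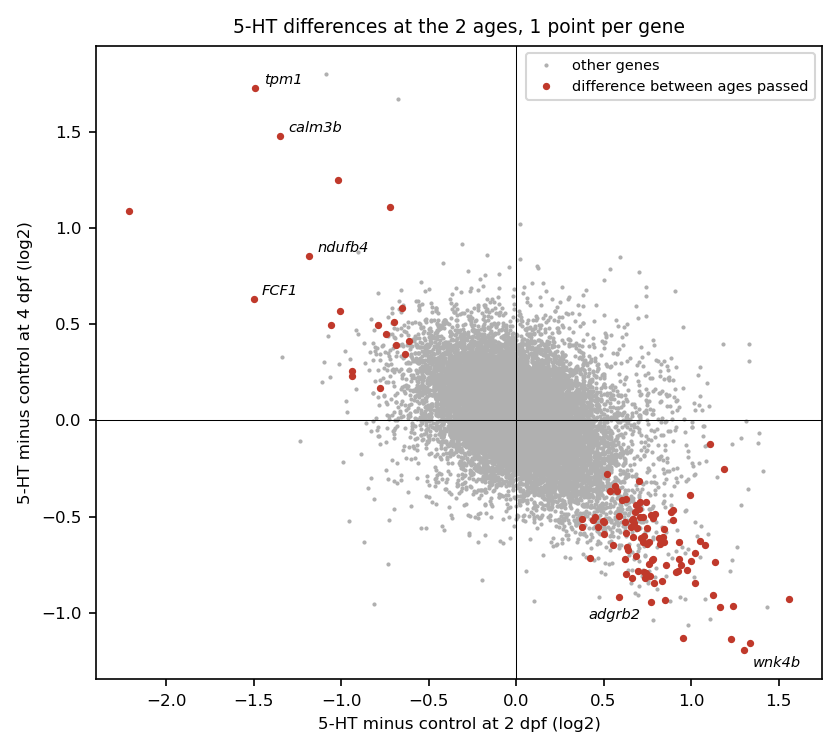
Log2 difference between 5-HT and control at 2 dpf (x axis) and at 4 dpf (y axis), 1 point for each of 18407 genes. The 112 genes in red, whose differences passed as unequal, all lie in the upper left or lower right quadrant, which their choice by the gap between the differences favours. The correlation over all genes is −0.452.

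Against reserpine larvae of the same age, 0 of 58127 features (0%) and 0 of 18407 genes (0%) passed, with a smallest adjusted p of 0.146 over features. An unadjusted p under 0.05 was found for 6270 features (10.8%) and 1347 genes (7.32%). The 5-HT arrays lay above all 4 control and reserpine arrays of 4 dpf in 3488 genes (18.9%) and below all 4 in 2285 (12.4%). All 40 leading genes were among them. The 40 were chosen by their p against these same controls, which favours this outcome, so it is no further support. The gene adgrb2, at 9.59 and 9.47 in the reserpine larvae, differed by −0.98 between 5-HT and reserpine (adjusted p = 0.208), and tpm1, at 5.46 and 5.77, by 1.87 (adjusted p = 0.208). The fish TRIM family gene ftr29 differed by −0.82 (adjusted p = 0.217) and dkk2 by 0.66 (adjusted p = 0.208). Without both reserpine arrays of 2 dpf, 421 features and 28 genes passed in this comparison. With the arrays of 4 dpf alone, 23 features and 0 genes passed.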

How the data were processed

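Expression was measured on 12 Affymetrix Zebrafish Gene 1.0 ST arrays, 2 for each of 6 groups. The authors deposited a table of log2 values for 73244 features, given to 2 decimals; the normalization is not given in the sources used here, and the log2 scale was taken from the range of the values. Depth does not apply to arrays, and their number limits the precision. Gene symbols came from the platform annotation: 20491 features have 1 symbol, 842 several and 51911 none, and 20013 were matched to RefSeq. Features above the 25th percentile on at least 2 arrays were kept. One linear model with 6 group means was fitted with limma 3.58.1 in R 4.3.3 (lmFit, eBayes, 6 residual degrees of freedom). Benjamini-Hochberg adjustment ran over all features of a fit (58127 in the main one), also for the adjusted p given for genes. It ran over genes only with the mean of all features of a symbol. A gene is its brightest feature. The fit was tested on simulated data with independent noise for each feature and array. That simulation held no shift shared across the features of an array, such as the split of the 2 dpf reserpine arrays. The genes named are the 20 in each direction with the smallest p (none passed), the 6 of each list with the smallest p, 18 fixed serotonin and clock genes and the leading genes of the other contrasts, with provisional names left out. The members, the 45 lists and the tests were chosen with earlier results of these data known. Of 2489 list genes written, 2093 were on the array. Same-numbered arrays of the 6 groups deviated together in most pairs but not in every pair (r = −0.07 to 0.33, 12 of 15 over 0.1). For 5-HT and control at 4 dpf r was 0.23. No pairing was assumed, since the labels do not say that a number marks a shared batch. Alternatives were other filters and normalizations, fewer arrays, a trended robust variance, a replicate block and other ways to choose features. Promoter motifs were not analysed here.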

Additional observations from a re-analysis of the deposited data

Results flagged for a closer look

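A test of the 5-HT difference at 4 dpf minus that at 2 dpf passed for 20 of the 40 leading genes of the 4 dpf comparison, against 112 of all 18407 genes (0.608%). The leading genes were chosen by the 4 dpf difference, which is part of this test. Interactions above 0 (log2) were 3.22 for tpm1, 2.83 for calm3b, 2.13 for FCF1, 2.04 for ndufb4 and 1.24 for gatd1. Those below 0 were −2.50 for wnk4b, −2.37 for wipf2b, −1.79 for gata2a, −1.72 for adgrb2, −1.71 for zcchc14, −1.67 for gpbp1l1, −1.61 for mbnl3, −1.51 for gng5, −1.43 for znrd2 and −1.39 for tob2. The remaining 5 were −1.28 for ttyh1, −1.21 for rnf44, −1.14 for cnksr2b, −1.10 for rhobtb2b and −0.93 for fam222aa. With the mean of all features of a symbol, ttyh1 was 0.06, zcchc14 −0.87, gng5 −0.72 and fam222aa −0.47, and of the 20 genes only FCF1 passed (2.13, adjusted p = 0.00414). Of the 20 leading genes on each side, 19 differed between the reserpine replicates of 2 dpf in the direction of their 4 dpf difference, against 70.5% of all genes with a 4 dpf difference above 0 and 59.5% of those below 0.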

How the results depend on the processing

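In 5-HT against control at 4 dpf, 0 features passed under 18 of 22 alternatives and 0 genes under 20 of 23, and 372 features and 22 genes passed without 1 or both reserpine arrays of 2 dpf, so that the counts without 1 array ran from 0 to 372 features and from 0 to 22 genes. With the arrays of 4 dpf alone 32 features passed. The settings without 1 or both reserpine arrays of 2 dpf are the same fit for the contrasts given here, so their equal counts are not separate results. For 5-HT against control at 4 dpf, leaving out either array of the 2 dpf control, 2 dpf 5-HT or 4 dpf reserpine group also repeats a fit. The 18 of 22 and 20 of 23 alternatives therefore count some fits more than once. Against reserpine at 4 dpf the counts without 1 array ran from 0 to 421 features and from 0 to 28 genes, with 421 and 28 also when both reserpine arrays of 2 dpf were left out, and 23 features passed with the arrays of 4 dpf alone. For the 5-HT difference at 4 dpf against 2 dpf (1253 features, 112 genes), counts without 1 array ran from 0 to 2458 features and from 0 to 381 genes, with 2458 and 381 also without both reserpine arrays of 2 dpf. The genes numbered 74 without a filter on low values and 200 with a trended, robust variance. With only features of 1 gene symbol 22 features and 12 genes passed, and with the mean of all features of a symbol 1 gene passed. In that last setting ttyh1 turned from −1.28 to 0.06 (adjusted p = 0.904), since its features differ in direction, and zcchc14 went from −1.71 to −0.87, gng5 from −1.51 to −0.72 and fam222aa from −0.93 to −0.47. A fit with the replicate number as a block gave 177 genes and 1614 features in the comparison of ages, and 0 features in 5-HT against control. The differences between replicates 1 and 2 correlated between groups at r = −0.07 to 0.33, with 12 of 15 pairs of groups over 0.1. That is a hint from the data, not the design. Otherwise the causes were not tested. Of 1355 single-gene values of 5-HT against control under alternatives, 20 changed sign. Of 1035 list medians, 25 moved by more than the spread between replicates and 42 changed sign. The age comparison has no value with the arrays of 4 dpf alone.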

Other observations

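The 5-HT difference at 4 dpf varied with gene length over the 17970 genes with a RefSeq length, with a Spearman rho of −0.16 across genes, which are not independent. Its median was 0.05 in the shortest of 5 equal groups of genes and −0.03 in the longest. Lens genes were below both controls in 10 of 51 (19.6%, against 19.7% of all genes) and above in 4 (7.84%, against 26.9%). Their median of −0.04 ran from −0.18 to 0.05 without each of the 4 arrays in turn. The crystallin genes cryba1a and crygs4 differed by −0.54 and −0.51 and crygm2d14 by 0.67, none passing. Interferon genes had a median of 0.14 that lay between −0.18 and 0.32 without each of the 4 arrays in turn. Blood vessel genes were above both controls in 15 of 57 (26.3%, near the 26.9% of all genes) and below in 14 (24.6%, against 19.7%). Among them the claudin gene cldn5b differed by 0.43 and the lymphatic receptor gene flt4 by −0.33.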
